A study of Homo sapiens with 6 samples.

Results

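Mitochondrial ribosomal proteins are encoded in the nucleus, made in the cytosol and imported into mitochondria, where they join RNA of the mitochondrial genome to form the ribosome that makes the mitochondrially encoded subunits of the respiratory chain. Genes named MRPL belong by name to the large subunit, which forms peptide bonds and holds the exit tunnel, and genes named MRPS to the small subunit, which reads the mRNA. Some of these proteins descend from bacterial ribosomal proteins, and others were added in the mitochondrial lineage. The genes described here are the protein-coding rows of the deposited table whose symbol is MRPL or MRPS followed by a number. The rule found 78 genes, 49 MRPL and 29 MRPS, among 58735 listed genes, of which 19951 are protein-coding.

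RNA was sequenced from SKM-1, an established human acute myeloid leukaemia line; the labels name no genetic change in either group. One group of 3 libraries came from cells given celastrol, a triterpenoid of the thunder god vine, for 48 h, and the other group of 3 came from cells given the solvent DMSO for the same time. The labels state no dose, nor do they say that the libraries of a group came from separate cultures, so p-values measure library-to-library spread, which may be technical. In such bulk RNA, fewer cells of a type and less RNA per cell cannot be told apart.

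The libraries held between 13549187 and 16231066 reads recovered from FPKM (fragments per kilobase of gene, scaled to library size). Between 56251 and 75657 of these fell on the mitochondrial ribosomal protein genes, 0.424% to 0.466% of reads with celastrol and 0.403% to 0.415% with DMSO. Genes of the mitochondrial chromosome held 1.37% to 1.85% of reads with celastrol and 5.44% to 5.65% with DMSO. Of the summed FPKM of nuclear protein-coding genes, the family made up 0.814% to 0.878% with celastrol and 0.804% to 0.826% with DMSO. For that share the groups overlapped. Of 8 myeloid and leukocyte markers, PTPRC, SPI1, CD33 and LYZ averaged at least 1 FPKM, whereas MPO stayed at or under 0.0337 FPKM in every library. LYZ was lower with celastrol (log2 fold change -1.10, adjusted p = 0.000136), as was the epithelial marker EPCAM (-1.04, adjusted p = 0.000163). Erythroid markers were present as well: 5 of 7 were lower with celastrol (71.4%, against 14.2% of all genes tested). The median log2 fold change over the 7 was -1.50, and they summed to 330.0 to 343 FPKM against 327 to 355. RHAG, which held most of that sum (284 to 296 FPKM against 247 to 270), and HBG2 were not called (0.15 and 0.29). Among those that were lower, AHSP had only 2 to 37 reads per library and SLC4A1 22 to 273. The part of any of these markers in the results below was not tested.

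All changes are log2 differences of FPKM plus 0.1, celastrol minus DMSO, with a standard error (SE) from limma-trend and a Benjamini-Hochberg adjusted p over the 12685 genes that averaged at least 1 FPKM. A gene is called higher or lower at an adjusted p under 0.05. Of the 78 mitochondrial ribosomal protein genes 77 could be tested, and the exception was MRPS24, at 0 to 0.18 FPKM and at most 7 reads. After celastrol 15 of the 77 rose, 19.5% against 15.3% of all genes tested, and 10 fell, 13.0% against 14.2%. In either direction 32.5% were called, against a background of 29.5%, so the share that changed was near that of genes at large. For 39 of the 77 the libraries of one group were all above those of the other, 50.6% against 47.3% of all genes. The median change of the 77 was 0.08, beside 0.02 for all genes tested and 0.04 for the 10072 protein-coding ones. Of those 10072 genes 17.5% were higher, 13.8% were lower and 50.5% had groups that lay apart. Single values of the 77 ran from -0.55 to 0.65. The family therefore held members that rose and members that fell.

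**Figure D1:**
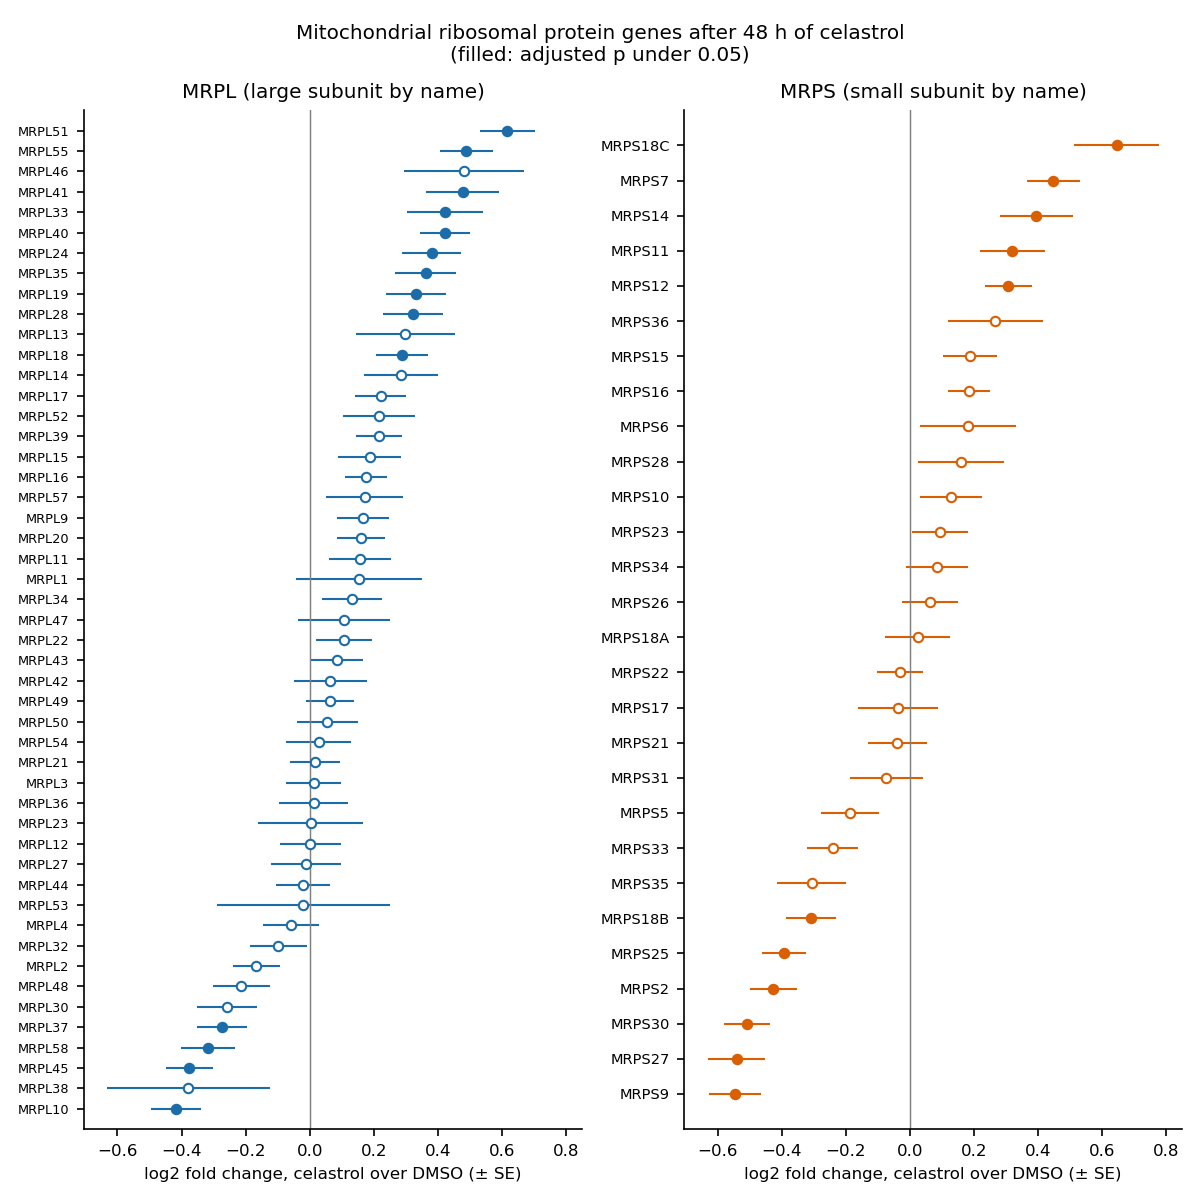
Log2 fold change (celastrol over DMSO, horizontal axis) with its SE for the 49 MRPL genes (left) and the 28 tested MRPS genes (right), each sorted by value, with filled points for an adjusted p under 0.05. Both subunits span from below -0.4 to above 0.6, and most points are open.

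The count of higher genes fell with any library left out, and so did the share of all genes, except without DMSO replicate 2. It was 9 without celastrol replicate 1 (11.7%, against 11.2% of all genes) or celastrol replicate 2 (11.7% against 8.82%). It was 6 without celastrol replicate 3 (7.79% against 9.56%) and 5 without DMSO replicate 3 (6.49% against 8.98%). Without DMSO replicate 1 or DMSO replicate 2 it was 10 (13.0%, against 14.8% and 15.4% of all genes). The count of lower genes was 7 to 10 with any library left out (9.09% to 13.0%, against 7.90% to 13.9% of all genes). The balance of directions depended on the scaling. After rescaling to TPM (FPKM scaled to the same total in every library) 46 were higher and 3 lower. The median of all genes then moved up by 0.24, and 41.5% of all genes were higher, beside 59.7% of the family. By limma-voom on recovered reads 29 were higher and 8 lower. That median moved up by 0.10, and 28.7% of all genes were higher, beside 37.7% of the family. Quantile normalization gave 16 higher and 11 lower (14.9% and 14.7% of all genes). Scaling to nuclear protein-coding reads gave 19 and 10 (18.1% and 12.6% of all genes). Relative to the median of all genes the family's median was 0.06 higher in the main fit and in each of these scalings. Calls that held in all 16 alternative settings were those of MRPL40, MRPL51, MRPL55 and MRPS7, higher, and of MRPS9, MRPS27 and MRPS30, lower.

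Some of these genes carry the same run of letters near their start, among them genes that rose, fell or were not called. RefSeq start windows (GRCh38.p14, 250 bases before the start and 50 after) were matched for 70 of the 78 genes. The core AAGATGGC, known as a motif of the transcription factor YY1, was searched on both strands (its reverse complement is GCCATCTT). It stood in 20 of 70 windows (28.6%), against 517 of 8335 windows of tested protein-coding genes (6.2%). In 14 of the 70 (20%) it lay on the gene's own strand with its first base among the first 30 transcribed bases, against 281 of the 8335 (3.37%). The ATG inside these letters was an annotated start codon in 11 of those 14 genes and in 197 of the 281, so there the same letters also hold the first codon of the protein. The 6 members below are shown from 60 bases before the start to 30 bases into the transcript, with the core in capitals, because they carry the same letters while 3 fell, 2 rose and 1 was not called. Starts are those of RefSeq. In GENCODE release 29 the genes MRPL45, MRPS27, MRPS7 and MRPL51 span their whole stretch, so which bases count as transcribed depends on the annotation. The stretches lie at chr17:38297108-38297197 (MRPL45, plus strand), chr5:72320211-72320300 (MRPS27, minus), chr5:44808887-44808976 (MRPS30, plus), chr17:75261819-75261908 (MRPS7, plus), chr12:6493233-6493322 (MRPL51, minus) and chr6:43687762-43687851 (MRPS18A, minus).
MRPL45: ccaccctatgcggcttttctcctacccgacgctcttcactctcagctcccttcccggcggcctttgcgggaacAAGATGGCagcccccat
MRPS27: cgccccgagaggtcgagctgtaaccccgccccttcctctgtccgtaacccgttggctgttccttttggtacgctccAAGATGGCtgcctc
MRPS30: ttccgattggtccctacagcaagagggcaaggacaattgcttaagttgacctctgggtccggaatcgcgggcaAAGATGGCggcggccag
MRPS7: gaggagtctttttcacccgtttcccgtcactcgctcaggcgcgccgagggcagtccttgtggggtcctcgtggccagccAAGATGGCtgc
MRPL51: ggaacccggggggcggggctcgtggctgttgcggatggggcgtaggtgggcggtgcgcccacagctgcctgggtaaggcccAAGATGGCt
MRPS18A: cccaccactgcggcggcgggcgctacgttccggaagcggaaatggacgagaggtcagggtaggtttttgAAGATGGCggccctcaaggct

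By call, the core was in 3 of 14 matched windows of higher genes, 4 of 9 of lower genes and 12 of 46 of genes not called. MRPL and MRPS genes held it in 12 of 42 and 8 of 28 windows. Motifs of other factors tied to mitochondrial biogenesis were closer to their background: the ETS core CCGGAAGT was in 15.7% of the windows against 10.3%, the NRF1 core GCGCATGC in 8.57% against 6.29%, and the E-box CACGTG, to which MYC binds, in 11.4% against 10.6%. The cyclic AMP response element TGACGTCA and the ATF4-type element TGATGCAA were in none of the 70, beside 3.55% and 0.456% of the 8335. These motifs were searched on both strands, and a match describes letters only.

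Among large-subunit genes the largest increase was that of MRPL51 (chromosome 12, 6491886 to 6493841, minus strand), a protein without a bacterial counterpart. Its values were 35.5, 35.6 and 42.0 FPKM with celastrol and 25.3, 23.3 and 24.8 FPKM with DMSO. Each celastrol library was above each DMSO library (log2 fold change 0.62, SE 0.09, adjusted p = 0.00238). MRPL55 (chromosome 1, 228106679 to 228109312, minus strand), the mitochondrial form of bacterial protein bL31, was at 24.1, 20.5 and 24.3 FPKM against 16.4, 15.9 and 16.6 FPKM. The groups lay apart, and the DMSO libraries differed by less than 1 FPKM (0.49, SE 0.08, adjusted p = 0.00515). MRPL40 (chromosome 22, 19431902 to 19436075, plus strand) sits in the central protuberance, the knob of the large subunit that faces the small one. It measured 56.4, 50.4 and 55.6 FPKM with celastrol and 37.9, 43.0 and 40.3 FPKM with DMSO, again without overlap (0.42, SE 0.08, adjusted p = 0.00703).

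MRPL41 (chromosome 9, 137551199 to 137552555, plus strand), another mitochondria-specific protein, was at 44.7, 43.8 and 56.3 FPKM against 38.0, 32.9 and 32.6 FPKM. Celastrol replicate 3 stood above the other two, and the change of 0.48 (adjusted p = 0.0181) did not pass once DMSO replicate 3 was left out (adjusted p = 0.0704). MRPL33 (chromosome 2, 27771717 to 27988087, plus strand), a homologue of bacterial bL33, read 10.1, 11.9 and 13.6 FPKM against 9.43, 7.96 and 8.96 FPKM. The lowest celastrol library was close to the highest DMSO library. Its change of 0.42 (adjusted p = 0.0324) did not pass when celastrol replicate 2 (adjusted p = 0.0909), celastrol replicate 3 (0.0911), DMSO replicate 2 (0.0752) or DMSO replicate 3 (0.0819) was left out. MRPL18, also of the central protuberance, was among the 3 most abundant MRPL genes at 63.0, 60.2 and 70.7 FPKM against 50.7, 52.2 and 55.5 FPKM. The change of 0.29 (adjusted p = 0.0324) did not pass with any library left out (adjusted p from 0.0506 to 0.0868). The other large-subunit genes called higher were MRPL24, MRPL35, MRPL19 and MRPL28, with changes from 0.32 to 0.38. None of these 4 calls held without celastrol replicate 3 (adjusted p from 0.0624 to 0.111) or without DMSO replicate 3 (0.0760 to 0.120). Leaving out celastrol replicate 1 lost MRPL35, MRPL19 and MRPL28 (0.0613 to 0.0915), celastrol replicate 2 lost MRPL24, MRPL19 and MRPL28 (at least 0.0544), DMSO replicate 1 lost MRPL35 and MRPL19 (0.0631 and 0.0515), and DMSO replicate 2 lost MRPL28 (0.0757).

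Small-subunit genes rose in 5 cases. MRPS18C (chromosome 4, 83455932 to 83469735, plus strand), the member closest to bacterial protein bS18, had the largest change of the family, 3.09, 3.73 and 4.03 FPKM against 2.14, 2.50 and 2.16 FPKM. The groups did not overlap (0.65, SE 0.13, adjusted p = 0.0105), but the gene had only 150 to 330 reads per library. ABRAXAS1 on the opposite strand covers 45.1% of its coding bases, and the sources used here do not say whether strand was kept. MRPS7 (chromosome 17, 75261674 to 75266373, plus strand), a protein of the small subunit's head that binds its ribosomal RNA, was at 19.9, 19.8 and 22.6 FPKM against 15.3, 14.3 and 15.9 FPKM. All celastrol libraries were higher (0.45, SE 0.08, adjusted p = 0.00669). MRPS14, likewise of the head, was at 13.0, 14.2 and 17.7 FPKM against 11.2, 11.2 and 11.4 FPKM. Its change of 0.39 (adjusted p = 0.0357) passed without celastrol replicate 1 but with no other library left out (adjusted p from 0.0609 to 0.0922). MRPS11 and MRPS12, the latter a protein of the decoding centre, were also called higher, by 0.32 and 0.31. MRPS11 (adjusted p = 0.0483) kept its call in 5 of 15 alternatives and missed it without any library except celastrol replicate 2 (adjusted p from 0.0826 to 0.140). MRPS12 missed it without celastrol replicate 1 (adjusted p = 0.0578), celastrol replicate 3 (0.0608) or DMSO replicate 3 (0.0631).

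The largest decrease was that of MRPS9 (chromosome 2, 105037983 to 105099960, plus strand), a homologue of bacterial uS9 in the head of the small subunit. It read 15.3, 13.7 and 15.9 FPKM with celastrol and 20.6, 22.6 and 22.3 FPKM with DMSO. The gap between the groups exceeded the range within either (-0.55, SE 0.08, adjusted p = 0.00293). MRPS27 (chromosome 5, 72219409 to 72320646, minus strand), a pentatricopeptide-repeat protein specific to mitochondria, was at 18.7, 15.8 and 15.9 FPKM against 23.2, 24.3 and 25.8 FPKM. Every celastrol library was lower (-0.54, SE 0.09, adjusted p = 0.00436). MRPS2 (chromosome 9, 135499984 to 135504673, plus strand), a homologue of bacterial uS2, was at 20.9, 19.4 and 19.0 FPKM against 27.0, 25.1 and 27.7 FPKM. MRPS25 (chromosome 3, 15042460 to 15065335, minus strand), without a bacterial counterpart, was at 15.4, 15.4 and 15.9 FPKM against 21.0, 19.3 and 21.1 FPKM. Neither pair of groups overlapped, and both genes fell, by 0.43 (adjusted p = 0.00510) and 0.39 (adjusted p = 0.00552). Rescaled to TPM the adjusted p was 0.0645 for MRPS2 and 0.0835 for MRPS25.

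Of the MRPL genes 4 fell. MRPL10 (chromosome 17, 47823272 to 47831534, minus strand) forms the base of the stalk, the arm that recruits translation factors, and carries the MRPL12 protein. It was at 32.9, 28.1 and 29.8 FPKM against 42.1, 39.6 and 39.4 FPKM (-0.42, SE 0.08, adjusted p = 0.00754). MRPL12 itself was at 29.2, 26.0 and 29.2 FPKM against 29.3, 24.9 and 30.3 FPKM, and its groups overlapped. MRPL45 (chromosome 17, 38297023 to 38323218, plus strand), which tethers the exit of the tunnel to the inner membrane, was at 42.9, 44.4 and 46.8 FPKM against 54.4, 61.4 and 58.5 FPKM. The groups lay well apart (-0.38, SE 0.07, adjusted p = 0.00843). After rescaling to TPM neither passed, with adjusted p = 0.0792 for MRPL10 and 0.182 for MRPL45. MRPL58 is a peptidyl-tRNA hydrolase built into the large subunit. It read 26.8, 24.2 and 29.4 FPKM against 34.0, 33.2 and 32.7 FPKM (-0.32, adjusted p = 0.0259). MRPL37, the MRPL gene of highest mean FPKM, read 70.1, 67.5 and 76.9 FPKM against 90.1, 80.8 and 88.3 FPKM (-0.27, adjusted p = 0.0343). Both lost the call without celastrol replicate 1, celastrol replicate 2, DMSO replicate 1 or DMSO replicate 3 (adjusted p from 0.0532 to 0.0988 for MRPL58 and from 0.0726 to 0.132 for MRPL37). Rescaled to TPM their changes were -0.08 (adjusted p = 0.413) and -0.03, neither called, and by limma-voom -0.22 (0.0871) and -0.18 (0.0788).

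**Figure D2:**
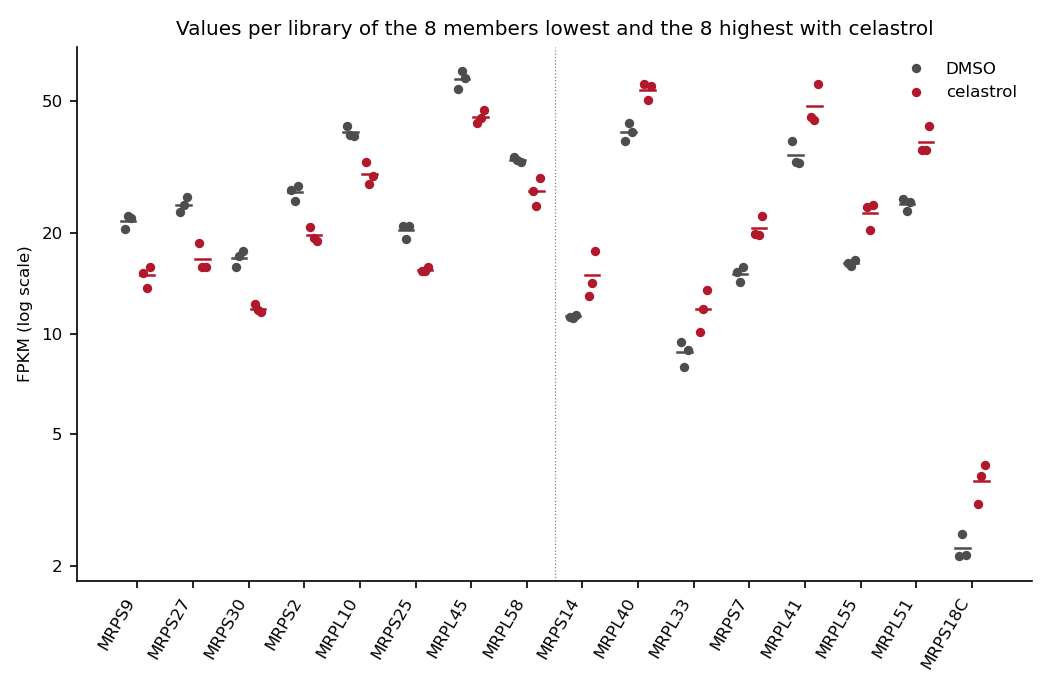
FPKM per library on a log axis for the 8 genes with the largest decrease (left of the dotted line) and the 8 with the largest increase (right) among called genes whose groups do not overlap; points are libraries, bars are means of 3. MRPS9 at 13.7 to 15.9 FPKM with celastrol sits below its DMSO values of 20.6 to 22.6, and MRPL51 at 35.5 to 42.0 sits above 23.3 to 25.3.

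Symbols and places in the ribosome differ for 3 members. MRPS30, named for the small subunit, is a protein of the large one (mL65 in the structural naming). Its values were 12.3, 11.8 and 11.6 FPKM against 15.9, 17.1 and 17.8 FPKM. It fell without overlap of the groups (-0.51, SE 0.07, adjusted p = 0.00259). MRPS36 is now assigned to the oxoglutarate dehydrogenase complex. It was at 16.6, 20.1 and 22.9 FPKM against 14.3, 19.5 and 15.7 FPKM, with overlapping groups (0.27, adjusted p = 0.212). The third case belongs to the MRPS18 family, 3 paralogs related to bacterial protein S18. MRPS18A, which lies in the large subunit (mL66), was at 27.7, 23.0 and 28.3 FPKM against 28.1, 24.8 and 24.7 FPKM. Its groups overlapped (0.02, adjusted p = 0.878), and its sign changed in 5 of 16 alternatives. MRPS18B (mS40), at 57.9, 50.3 and 55.4 FPKM against 70.3, 63.4 and 68.8 FPKM, fell by 0.31 (adjusted p = 0.0231). That call was lost without celastrol replicate 2 (adjusted p = 0.0960), celastrol replicate 3 (0.0520), DMSO replicate 1 (0.0507) or DMSO replicate 3 (0.0928), and rescaled to TPM it was -0.07 (adjusted p = 0.435). With MRPS18C higher, the 3 paralogs thus had 3 outcomes: higher, lower and not called.

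The most abundant small-subunit genes by mean FPKM, MRPS34 and MRPS16, were not called. MRPS34, at 94.3, 88.3 and 97.9 FPKM against 94.7, 76.7 and 94.1 FPKM, had overlapping groups and a change of 0.08 (adjusted p = 0.539), which was -0.01 without DMSO replicate 2. MRPS16, a homologue of bacterial bS16, was at 77.2, 70.4 and 72.5 FPKM against 66.5, 62.8 and 64.2 FPKM. Its groups did not overlap, yet the change of 0.18 missed the threshold (adjusted p = 0.0716). MRPL14, next after MRPL37 in mean FPKM among MRPL genes, was at 88.1, 74.2 and 96.2 FPKM against 75.1, 62.6 and 74.1 FPKM. A single DMSO library, replicate 1, exceeded the lowest celastrol library (0.28, adjusted p = 0.102). After rescaling to TPM, where 41.5% of all genes were called higher, these 3 genes were too, with adjusted p = 0.0135, 0.00136 and 0.00386. MRPS34 was called in 1 of 16 alternatives, and MRPS16 and MRPL14 in 4 each.

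Of 49 MRPL genes 10 rose and 4 fell (28.6% called, median change 0.11), and of 28 tested MRPS genes 5 rose and 6 fell (39.3% called, median 0.04). Of all genes tested 29.5% were called. Change was above 0 in 36 of 49 MRPL and 15 of 28 MRPS genes, beside 6672 of all 12685 genes tested and 5591 of 10072 protein-coding ones. Over the 77 members that count was 51 in the main fit. It was 63 after rescaling to TPM and 40 without celastrol replicate 3 and DMSO replicate 1 together. The medians differed by 0.06 in the 6 libraries and by 0.04 to 0.13 with any library left out, a difference of the same sign in each case. Sorted by place in the ribosome, with MRPS30 and MRPS18A in the large subunit and MRPS36 left out, the large subunit had 10 higher and 5 lower of 51 (median 0.11) and the small 5 and 5 of 25 (median 0.06).

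The summed level of each subunit gives the same comparison within a library, where the scaling cancels. MRPL genes summed to 1171, 1113 and 1278 FPKM with celastrol and 1110, 1090 and 1122 FPKM with DMSO, and MRPS genes to 659, 623 and 694 FPKM against 677, 662 and 683 FPKM. For each sum the groups overlapped. The sum over both subunits, 1846 ± 119 FPKM against 1781 ± 27.1 FPKM (SD, n = 3 each), overlapped too. The log2 ratio of the MRPL to the MRPS sum was 0.83, 0.84 and 0.88 with celastrol and 0.71, 0.72 and 0.72 with DMSO. Here the groups were apart, by 0.13 on the log2 scale (a linear ratio of 1.80 against 1.64), and sorting by place left a gap of 0.12. Neither ratio holds the 5 subunits under other names described below, DAP3, CHCHD1 and AURKAIP1 of the small subunit among them. Those 5 summed to 222 to 264 FPKM with celastrol and 187 to 200 FPKM with DMSO. Both ratios thus cover only genes named MRPL or MRPS, not the whole ribosome. No p is given for these sums, which are scores over a chosen set of genes.

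The ribosomal RNAs that these proteins bind are encoded by mitochondrial DNA, and both changed by more than any of the 77 genes. MT-RNR2, the large-subunit RNA, was at 841, 607 and 615 FPKM with celastrol and 3740, 4289 and 4218 FPKM with DMSO (log2 fold change -2.58, SE 0.13, adjusted p = 7.06e-05). MT-RNR1, the small-subunit RNA, was at 344, 248 and 338 FPKM against 570, 515 and 536 FPKM (-0.82, SE 0.13, adjusted p = 0.00382). Both fell in every celastrol library, and the ratio of MT-RNR2 to MT-RNR1 was 2.24 ± 0.363 against 7.59 ± 0.918 (SD, n = 3 each). The large-to-small ratio thus moved down for the RNAs and up for the protein mRNAs. The sources used here do not say whether the library preparation depleted ribosomal RNA.

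**Figure D3:**
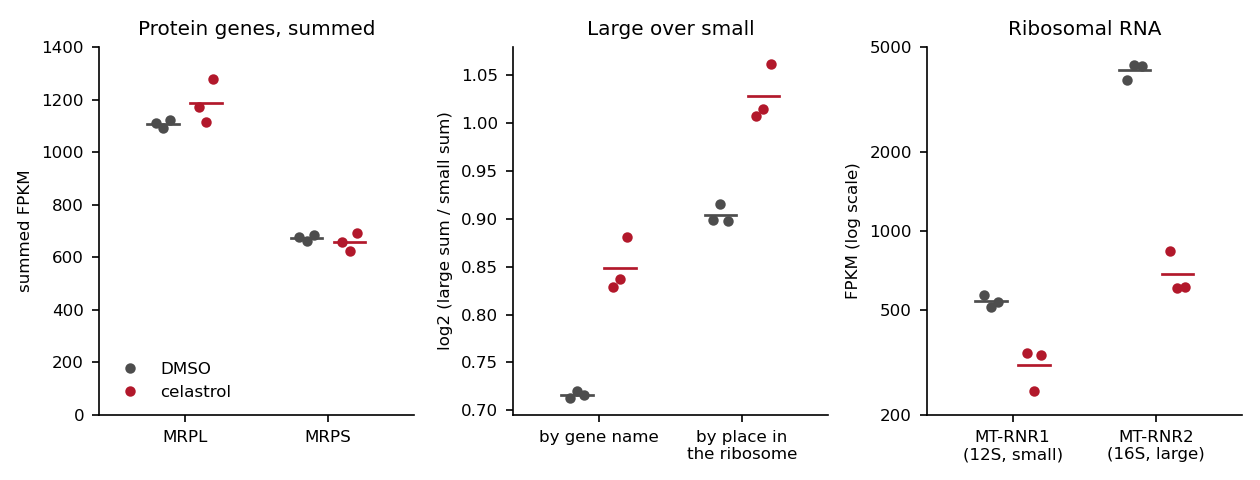
Left, summed FPKM of MRPL and MRPS genes per library. Middle, log2 of the large over the small sum by gene name and by place in the ribosome; right, FPKM of the mitochondrial ribosomal RNAs on a log axis (points are libraries, bars means of 3). The sums overlap between groups, the ratio by name is 0.83 to 0.88 with celastrol and 0.71 to 0.72 with DMSO, and both RNAs are lower with celastrol.

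Members were also counted by whether the bacterial ribosome has the same protein, beside 15.3% higher and 14.2% lower among all genes. Here MRPS18C was taken as the counterpart of bacterial S18, and its relatives MRPS18A and MRPS18B were counted without one. Of 45 tested members with a homologue 12 rose and 3 fell (median change 0.16), and of 32 without one 3 rose and 7 fell (median 0.03). Within the large subunit by name the counts were 7 higher and 1 lower of 30 with a homologue (median 0.16) and 3 and 3 of 19 without (median 0.06). Within the small subunit they were 5 and 2 of 15 (median 0.18) and 0 and 4 of 13 (median -0.07). With MRPS18A and MRPS18B counted as having a homologue, a choice made after seeing the data, the counts were 12 and 4 of 47 against 3 and 6 of 30 in all, and 5 and 3 of 17 against 0 and 3 of 11 in the small subunit. Of the calls behind these counts only 4 of 15 higher and 3 of 10 lower held in all alternatives. Those with a homologue were MRPL55 and MRPS7, higher, and MRPS9, lower. Those without one were MRPL40 and MRPL51, higher, and MRPS27 and MRPS30, lower, so the stable calls ran in both directions in each group. By functional site, 1 of 6 exit-tunnel genes rose (MRPL24) and 1 fell (MRPL45), 1 of 3 stalk genes fell (MRPL10), and 2 of 6 central-protuberance genes rose (MRPL18 and MRPL40). These groups are small, and their differences were not tested.

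Change also went with the number of coding bases, a feature the choice of genes did not use. Each base that is coding in any annotated transcript of a gene was counted once. The number can therefore exceed the coding sequence of a single transcript and depends on the annotated transcripts. Genes that rose had a median of 540 coding bases (384 to 962), those that fell 965 (626 to 1767) and those not called 669 (261 to 1370). For all tested protein-coding genes the medians were 1176, 1589 and 1533. Spearman's rho between change and coding bases was -0.42 over the 77 members, -0.35 over MRPL and -0.53 over MRPS genes, beside -0.16 over 10072 protein-coding genes. With the exonic length by which FPKM divides, rho was -0.11 over the 77 and -0.002 over all genes tested. These correlations run across genes of the same 6 libraries, which are not independent replicates, and are given as descriptions.

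**Figure D4:**
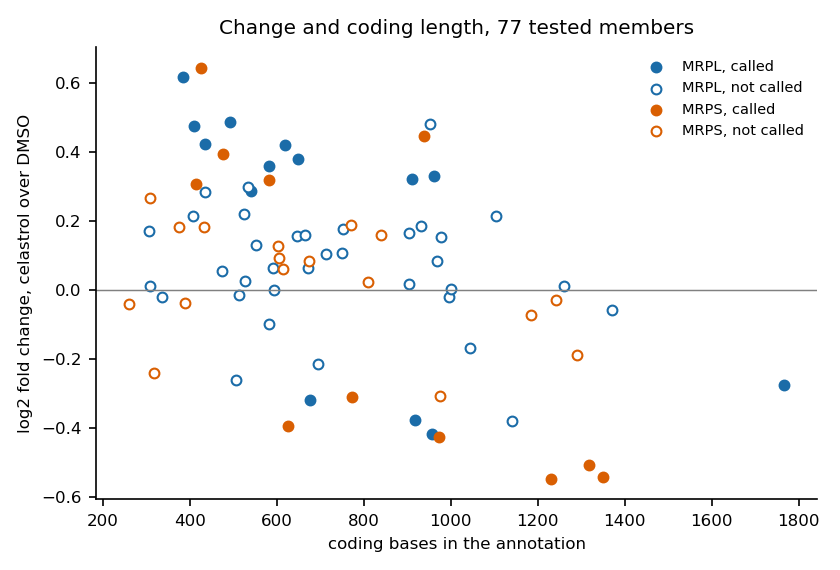
Log2 fold change (celastrol over DMSO) against coding bases in the annotation for the 77 tested genes, MRPL in blue and MRPS in orange, filled where the adjusted p is under 0.05. Filled points above 0 lie between 384 and 962 coding bases and those below 0 between 626 and 1767.

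The members of lowest level were genes whose coding sequence overlaps a second annotated gene. For 8 of the 78, over 50% of coding bases are shared with another gene on the same strand, such as a read-through gene that joins neighbours. MRPS24 shares 92.2% with URGCP-MRPS24, MRPL38 94.1% with AC087289.3, MRPL46 64.0% with AC013489.1, MRPL53 100% with CCDC142 and MRPS17 100% with AC092647.5. These 5 had the lowest means of the family: 0.0626, 1.36, 1.52, 1.67 and 2.83 FPKM in that order. The remaining 3 were MRPS28 (53.0% shared, 3.90 FPKM), MRPL30 (95.3%, 26.4 FPKM) and MRPL12 (96.0%, 28.1 FPKM). The median over the 8 was 2.25 FPKM and over the other 70 it was 20.1 FPKM. Except for CCDC142, the partner genes were listed at 0.35 FPKM or less in every library. How reads on overlapping genes were counted is not stated, so the levels and changes of these 8 are uncertain, and the part of the overlap in their low level was not tested. None of them was called, so the counts of 15 higher and 10 lower do not include them.

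**Figure D5:**
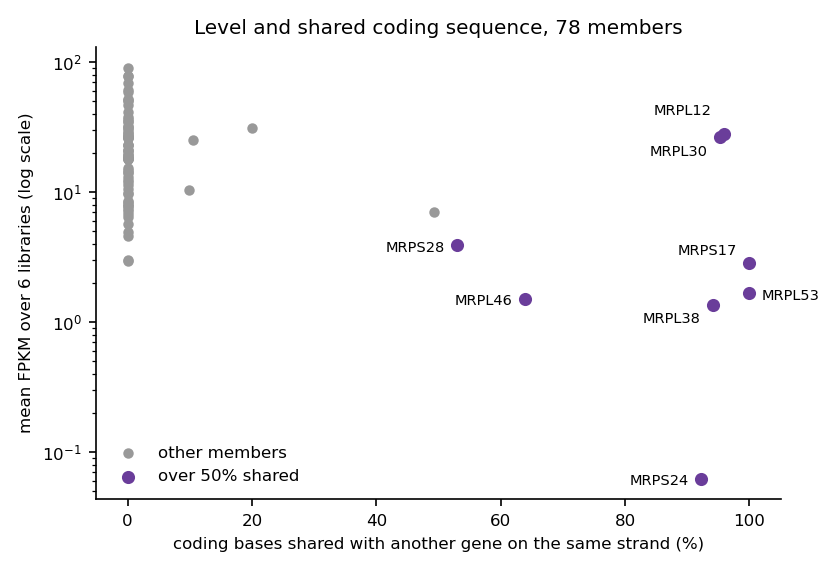
Mean FPKM over 6 libraries (log axis) against the percentage of coding bases shared with another gene on the same strand, for 78 genes; the 8 genes over 50% are named. The 5 lowest means, from 0.0626 to 2.83 FPKM, all belong to named genes, while MRPL12 and MRPL30 lie above 26 FPKM.

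Subunits of the same ribosome that carry other names were looked at beside the family. GADD45GIP1, a large-subunit protein at the exit tunnel, was at 38.8, 35.1 and 43.3 FPKM against 26.1, 25.0 and 27.3 FPKM and rose by 0.57 (adjusted p = 0.00368). In the small subunit AURKAIP1 was at 93.4, 91.9 and 114 FPKM against 77.6, 66.3 and 73.3 FPKM (0.46, adjusted p = 0.0147), and CHCHD1 at 39.6, 43.6 and 55.7 FPKM against 29.6, 30.4 and 34.7 FPKM (0.54, adjusted p = 0.0191). Both rose, but AURKAIP1 missed the threshold with DMSO replicate 3 left out (adjusted p = 0.0507) and CHCHD1 with DMSO replicate 1 left out (0.0521). DAP3, a GTP-binding protein of the small subunit, fell: it was at 39.8, 39.5 and 40.5 FPKM against 51.3, 52.2 and 52.3 FPKM (-0.38, adjusted p = 0.00365, and 0.0933 rescaled to TPM). PTCD3 read 11.0, 11.6 and 10.8 FPKM against 11.7, 13.4 and 12.9 FPKM and was not called (-0.19, adjusted p = 0.107), though without DMSO replicate 1 it was (adjusted p = 0.0414).

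Factors that assemble the ribosome included genes of either direction. Of 22 tested, 3 rose and 4 fell (31.8% called, near the 29.5% of all genes, median change 0.07). The largest decreases were those of RPUSD4, which modifies the large-subunit RNA, at 9.47, 8.41 and 10.7 FPKM against 16.4, 14.3 and 15.7 FPKM (-0.70, SE 0.10, adjusted p = 0.00300), and of the GTPase NOA1, at 14.9, 14.3 and 14.0 FPKM against 22.1, 23.4 and 22.9 FPKM (-0.66, SE 0.07, adjusted p = 0.000606). RBFA, a small-subunit assembly factor, was lower as well (-0.55, adjusted p = 0.0275), but did not pass without celastrol replicate 2, celastrol replicate 3, DMSO replicate 1 or DMSO replicate 3 (adjusted p from 0.0638 to 0.0879). Rescaled to TPM it had an adjusted p of 0.102. METTL17 also fell, a call lost without celastrol replicate 2 (adjusted p = 0.0545) and after rescaling to TPM (0.282). MPV17L2 rose, a call that held in all 16 alternatives. MALSU1 and YBEY rose too, with 7 of 16 alternatives keeping each call. Without one library MALSU1 passed only with celastrol replicate 1 left out (otherwise adjusted p from 0.0520 to 0.133), and YBEY in no case (0.0503 to 0.149).

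Of 16 factors of mitochondrial translation 2 rose (TACO1 and GFM2) and 4 fell (37.5% called, against 29.5% of all genes). Their median change was 0.09. TACO1 missed the threshold once DMSO replicate 3 was left out (adjusted p = 0.0733), and GFM2 without any celastrol replicate or DMSO replicate 3 (0.0565 to 0.0654). The decreases included MRRF, which recycles the ribosome (-0.71, adjusted p = 0.00274), LRPPRC, which stabilises mitochondrial mRNAs (-0.66, adjusted p = 0.00370), and OXA1L, which inserts the new proteins into the inner membrane (-0.48, adjusted p = 0.00358). Among 10 genes of factors that regulate mitochondrial biogenesis 9 were tested and 1 was called (11.1%, against 29.5% of all genes). MYC was lower at 67.5, 56.2 and 50.8 FPKM against 90.8, 88.5 and 85.8 FPKM (-0.61, SE 0.10, adjusted p = 0.00518). YY1, whose core sequence is shown above, was at 20.6, 20.8 and 20.4 FPKM against 19.5, 20.6 and 20.4 FPKM, and its groups overlapped.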

How the data were processed

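Each value is the FPKM of a gene in a library, as deposited by the authors. The submitters' processing notes name HISAT2 (2.0.5) and featureCounts (1.5.0-p3), and GRCh38, without settings or strandedness. Multiplying FPKM by gene length gave, in each library, multiples of a fixed step for 100% of values (within 0.001), and so the reads. The authors' divisor was 1.04 to 1.05 times the listed reads with celastrol and 0.963 to 0.994 times with DMSO. The deposited values are thus lower for celastrol and higher for DMSO than the listed reads give. How the divisor was set is not stated. By limma-voom, which scales to recovered reads, the median of all genes moved up by 0.10, beside a family median of 0.08 in the main fit.

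Tests used limma 3.58.1 in R 4.3.3 (limma-trend, treatment as the single term, two-sided) on log2(FPKM + 0.1) for genes with a mean of at least 1 FPKM, with Benjamini-Hochberg adjustment over all of them. The pseudocount understates changes of low genes. The steps were tested on simulated data. Alternatives were other pseudocounts, filters and scalings, limma-voom, each library left out and a replicate block. Leaving out 2 libraries together, leaving out genes with shared coding sequence, and moving MRPS18A and MRPS18B in the homologue count were chosen after seeing the data.

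Members and lists were chosen with earlier results of these data known. Named members are the 8 largest changes in each direction among called genes without overlap, the 3 of highest mean FPKM in each subunit, MRPS24, MRPS30, MRPS18A and MRPS36. Other lists name up to 3 called genes each, besides the 5 subunits under other names and both ribosomal RNAs. MRPL12, the genes with shared coding sequence and the remaining called genes were named after their values were seen. Positions and coding bases follow GENCODE release 29 (GRCh38), start windows RefSeq GRCh38.p14. Between libraries of a group a chi-square per gene was 4.01 to 13.4, so none repeated another, and between groups it was 49.3 to 77.7.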

Additional observations from a re-analysis of the deposited data

How the results depend on the processing

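With any library left out, the family had 5 to 10 higher and 7 to 10 lower genes, MRPL 3 to 7 and 2 to 4, and MRPS 2 to 4 and 5 to 6. All genes had 1119 to 1948 and 1003 to 1766, and the MRPL minus MRPS median difference ran from 0.0363 to 0.126. Without celastrol replicate 3 and DMSO replicate 1 together the family had 8 higher (6 MRPL, 2 MRPS) and 11 lower, and its median was 0.0004 above that of all genes. Without a filter on low values, which tests 31741 genes, there were 6 higher (3 MRPL, 3 MRPS) and 7 lower, 2 of them MRPL. With a minimum mean of 5 FPKM, 3 MRPS genes were higher and the medians differed by 0.15; they differed by 0.0427 by place in the ribosome and by 0.10 without genes of shared coding sequence. Rescaled to TPM, 46 were higher (31 MRPL, 15 MRPS) and 3 lower (0 MRPL, 3 MRPS), with medians of 0.35 and 0.28, against 5266 and 813 of all genes. By limma-voom 29 were higher (21 MRPL, 8 MRPS) and 2 MRPL genes lower, with medians of 0.21 and 0.14, against 3646 higher genes overall. The cause of these shifts was not tested, apart from the scaling itself. Rescaling to TPM divides by the summed FPKM of a library, which was 247786 to 260862 with celastrol and 294210 to 307016 with DMSO. A replicate block left 15 higher and 10 lower members (14 and 10 of the same genes) and 1776 and 1617 of all genes, and same-numbered libraries share only a number, since their deviations from the group means correlated at -0.0326 to 0.0339. None of the 25 called members changed sign in any alternative that gave a value. The minimum of 5 FPKM gives no value for MRPS18C, MRPS11, RBFA and MRRF. Depth limits MRPS18C (150 to 330 reads) and MRPL38, MRPL46, MRPL53, MRPS17 and MRPS28 (22 to 211 reads).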

Other observations

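The table also lists 78 rows outside the rule whose symbols hold the name of a mitochondrial ribosomal protein gene: 75 pseudogenes, 2 antisense genes and the read-through gene URGCP-MRPS24. A single one, the unprocessed pseudogene MRPL45P2 (chromosome 17, 47450568 to 47492492, minus strand), averaged at least 1 FPKM. It was at 1.69, 2.41 and 3.32 FPKM with celastrol and 2.38, 3.15 and 2.76 FPKM with DMSO, with overlapping groups. Its parent MRPL45 averaged 44.7 FPKM with celastrol and 58.1 FPKM with DMSO and was called lower. The sources used here do not say how reads were divided between the copies.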
